A study of Homo sapiens with 4 samples.

Results

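CHAF1A CUT&Tag in RBE cells was examined at the strong peaks that appear only in the list made after CHAF1A knockdown. RBE is an established human line of intrahepatic cholangiocarcinoma, a cancer of the bile ducts inside the liver. The cells received an siRNA against CHAF1A (si-CHAF1A, 2 samples) or a control siRNA (si-Ctrl, 2 samples) with Lipofectamine and were collected 48 hours later. The 2 deposited peak lists, named si and NC, are read here as the si-CHAF1A list and the si-Ctrl list, 1 per group. The peaks were selected on measured values of both lists: a peak was taken where it lay on chromosomes 1 to 22 or X, had a −log10 q of at least 20 in the si-CHAF1A list, and shared not even 1 bp with any si-Ctrl peak. This gave 486 peaks, called siRNA-only below, of 15952 strong si-CHAF1A peaks, of 97492 si-CHAF1A peaks on these chromosomes, and of 175720 peaks in both lists. The percentage of strong si-CHAF1A peaks without an overlapping si-Ctrl peak was thus 3.05 (95% exact binomial interval 2.79 to 3.33). In the other direction, 1702 of 19403 strong si-Ctrl peaks had no overlapping si-CHAF1A peak, which is 8.77% (8.38 to 9.18).

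CHAF1A is the large subunit of CAF-1, the histone chaperone that deposits new H3-H4 on DNA behind the replication fork and helps to keep heterochromatin compact. In CUT&Tag, an antibody tethers a transposase to its target, and the released fragments pile up near the places where the target sits or where chromatin is open to the enzyme. Promoters of active genes are the most open of these places, while centromeric satellites and nuclear copies of mitochondrial DNA hold repeated sequence in which short reads are hard to place.

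The strength and the overlap chose these peaks, so their −log10 q, fold enrichment and width are given as a description and carry no test. Fold enrichment (reads piled up at the summit over the local background) and −log10 q are the authors' values. There is 1 list per group and the samples of a group are not kept apart, so no comparison has a replicate check. Intervals are 95% exact (Clopper-Pearson) and cover counting error only. A site could be listed in 1 list and missed in the other through 1 sample, and this was not tested. CHAF1A occupancy and access of the transposase cannot be told apart from these lists. As a check of the labelled cell type, 3 of 5 bile duct marker genes had a si-CHAF1A peak at a gene end and 5 of 5 had a si-Ctrl peak there. Of 12 markers of hepatocytes, fibroblasts, endothelium and immune cells, 2 (COL1A1 and VWF) had a si-CHAF1A peak at an end and 0 had a si-Ctrl peak there.

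Sequence is shown for 4 promoters that hold the summit of a siRNA-only peak: the strongest such peak at a promoter (TAF13), the next in strength (KIF11), a chromatin regulator (CREBBP) and the promoter farthest from any si-Ctrl peak (INTU). TAF13 encodes a subunit of TFIID, KIF11 the spindle kinesin Eg5, CREBBP a histone acetyltransferase, and INTU a planar cell polarity protein needed for cilia. The sequences are RefSeq promoter windows of GRCh38.p14, which run from 250 bases before to 50 bases after the 5′ end and are written 5′ to 3′ on the gene's strand. TAF13 is chr1:109075954-109076253 (minus strand), KIF11 is chr10:92592880-92593179 (plus), CREBBP is chr16:3880664-3880963 (minus) and INTU is chr4:127632707-127633006 (plus). Capitals mark every match, on either strand, to the TATA box TATAAA, the CCAAT box CCAAT, the GC box GGGCGG, the ETS core CCGGAA, the NRF1 motif GCGCATGC, the E box CACGTG, and the AP-1 sites TGACTCA and TGAGTCA.
TAF13: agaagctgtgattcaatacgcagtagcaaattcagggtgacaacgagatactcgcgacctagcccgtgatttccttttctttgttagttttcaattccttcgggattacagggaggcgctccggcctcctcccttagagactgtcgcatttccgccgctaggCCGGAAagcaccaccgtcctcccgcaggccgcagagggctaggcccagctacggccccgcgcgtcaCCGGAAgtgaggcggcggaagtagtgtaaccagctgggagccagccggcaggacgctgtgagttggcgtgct
KIF11: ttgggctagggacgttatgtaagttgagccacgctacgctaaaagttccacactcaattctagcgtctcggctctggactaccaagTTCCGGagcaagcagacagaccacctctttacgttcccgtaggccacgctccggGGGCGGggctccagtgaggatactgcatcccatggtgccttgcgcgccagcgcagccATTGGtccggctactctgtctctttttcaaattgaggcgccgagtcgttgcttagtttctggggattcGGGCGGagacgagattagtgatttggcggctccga
CREBBP: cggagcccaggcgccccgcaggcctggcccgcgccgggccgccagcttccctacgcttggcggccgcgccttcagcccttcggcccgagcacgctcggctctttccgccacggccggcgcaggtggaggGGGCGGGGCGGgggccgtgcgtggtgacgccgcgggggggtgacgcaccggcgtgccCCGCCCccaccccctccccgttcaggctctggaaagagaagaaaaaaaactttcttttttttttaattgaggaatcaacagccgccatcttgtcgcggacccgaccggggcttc
INTU: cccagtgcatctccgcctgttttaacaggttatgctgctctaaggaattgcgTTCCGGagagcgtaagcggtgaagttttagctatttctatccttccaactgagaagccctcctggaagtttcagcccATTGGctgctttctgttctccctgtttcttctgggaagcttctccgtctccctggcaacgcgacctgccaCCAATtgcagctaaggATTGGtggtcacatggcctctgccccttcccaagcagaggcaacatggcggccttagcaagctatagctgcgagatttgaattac

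The 4 windows differ in CpG content and motifs. The TAF13 peak spans 292 of the 300 bases, and its summit lies 52 bp from the 5′ end. The window has 2 ETS cores and 25 CpG dinucleotides. The KIF11 peak covers 280 of the bases and the window holds a CCAAT box, an ETS core and 2 GC boxes at 23 CpG. CREBBP has the most CpG of the 4, with 36, and only GC boxes, 2 of which overlap. INTU has the fewest of the 4, with 10 CpG, and holds 3 CCAAT boxes and an ETS core within a peak that spans the whole window. Over all windows held by siRNA-only peaks, CpG counts ran between 3 at GTPBP2 and 44 at USP28, and 5 windows held none of the motifs.

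Over all promoters held by siRNA-only peaks, the composition was that of CpG-rich promoters. Promoter windows were at hand for the chromosomes of 469 siRNA-only peaks, and 22 of these peaks had their summit in a window, 27 windows in all because windows of neighbouring starts overlap. That is 4.69% of these peaks, against 16.3% of matched shared peaks. Their median GC content was 63.3% and their median CpG count 23, against 65.7% and 28 in the 100 windows held by shared peaks of like −log10 q and 58.7% and 14 in all 34961 windows. CCAAT was found in 14 of the 27 windows (51.9%), against 37.0% of the windows of shared peaks and 34.6% of all windows. The GC box was in 15 (55.6%), against 68.0% and 45.0%, and the ETS core in 6 (22.2%), against 34.0% and 17.3%. The E box was in 5 windows (18.5%), 3 of them at the single locus of PEPD and LOC105372370, against 14.0% of the windows of shared peaks and 7.27% of all windows. The NRF1 motif was in 2 (7.41%), against 9 of the 100 windows of shared peaks and 3.06% of all windows, TATAAA in 1 (3.70%), against 3.00% and 11.5%, and neither AP-1 site in any, against 1.00% and 4.92%. With 27 windows, each share rests on few promoters, and a match to these letters is not a binding site.

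The siRNA-only peaks were weak and narrow among strong peaks. Their −log10 q had a median of 24.1 and ran between 20.02 and 4180. Of the 486, 368 (75.7%) lay under 30 and 14 (2.88%) at 100 or more. The 5 siRNA-only peaks nearest the threshold had −log10 q of 20.02 to 20.03, and the 5 si-CHAF1A peaks that also lacked a si-Ctrl overlap but lay just under it had 19.95 to 19.99. Fold enrichment and width did not separate the 2 sides: the peaks just inside had a fold of 3.42 to 4.76 and widths of 268 to 693 bp, and those just outside a fold of 2.76 to 4.55 and widths of 229 to 810 bp.

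Each siRNA-only peak was set beside 1 shared peak, the strong si-CHAF1A peak nearest in −log10 q that a si-Ctrl peak does overlap. The siRNA-only peaks were 344 bp wide at the median (interval of the median 324 to 373, range 173 to 1524), against 622 bp (589 to 673) for these 486 matched shared peaks. Under 250 bp were 130 siRNA-only peaks (26.7%), against 29 shared peaks (5.97%). Fold enrichment hardly differed, at a median of 4.85 in siRNA-only peaks and 4.91 in matched shared peaks. The reads at the summit were also close, at 79 and 76. Both values come from the same summit and background as the −log10 q used for matching, so this likeness is partly built in. Strong si-Ctrl peaks that are absent from the si-CHAF1A list were narrow as well, at a median of 310 bp against 522 bp for shared si-Ctrl peaks of like −log10 q. A narrow interval also has less room to overlap another, so width and absence are not independent.

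**Figure D1:**
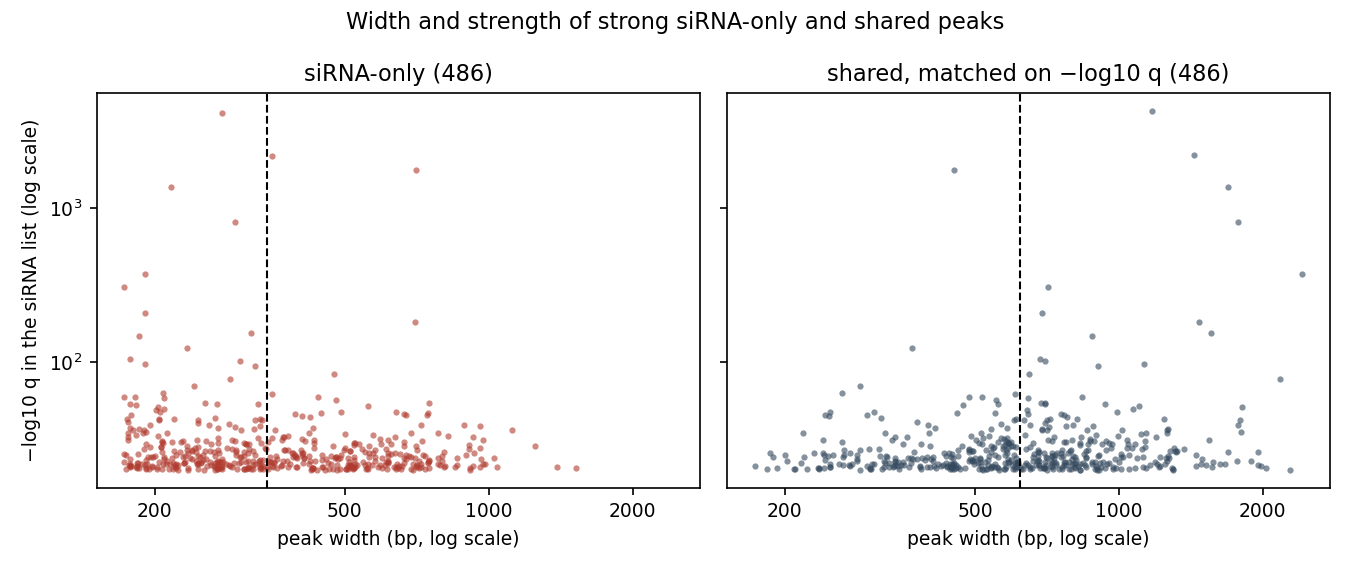
Width (bp, log scale) and −log10 q in the si-CHAF1A list (log scale) of the 486 siRNA-only peaks, left, and of the 486 shared peaks matched on −log10 q, right; each point is 1 peak and the dashed line is the median width. The siRNA-only points lie further left, with a median of 344 bp against 622 bp.

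The share of strong si-CHAF1A peaks that had no si-Ctrl counterpart was lower in wider and in stronger peaks. It was 16.0% (130 of 810; 13.6 to 18.8) for peaks under 250 bp, 5.48% from 250 to under 500 bp, 2.76% from 500 to under 750 bp and 0.999% from 750 to under 1000 bp. Of 4189 peaks of 1000 bp or more, 6 were absent from the si-Ctrl list (0.143%; 0.0526 to 0.311). By strength it was 6.20% for −log10 q of 20 to 30, 1.82% for 30 to 50, 0.651% for 50 to 100 and 0.602% for 100 or more.

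**Figure D2:**
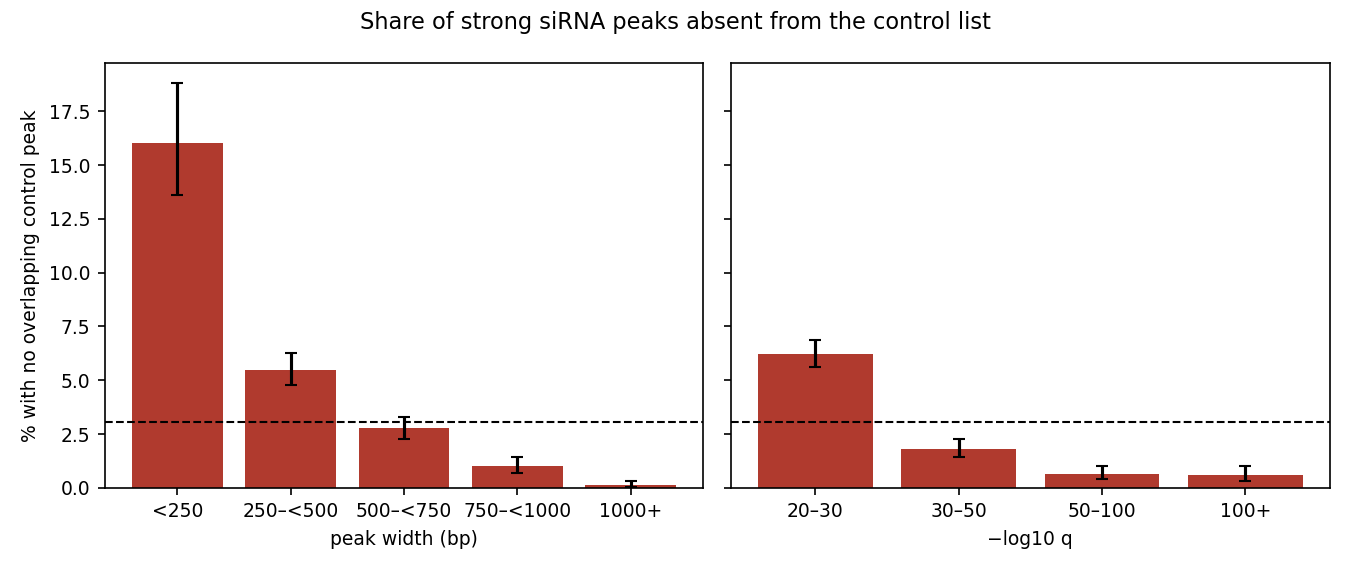
Percentage of strong si-CHAF1A peaks that no si-Ctrl peak overlaps, by peak width (left) and by −log10 q (right); error bars are 95% exact binomial intervals and the dashed line is the 3.05% of all strong peaks. The bars drop from 16.0% for the narrowest peaks to 0.143% for the widest.

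The matched shared peaks had si-Ctrl counterparts of similar strength to their own. The −log10 q of those si-Ctrl peaks had a median of 26.4 and a 10th percentile of 12.5, and 23 of 486 (4.73%; 3.02 to 7.02) were under 10. For a siRNA-only peak no si-Ctrl value is listed, and the si-Ctrl signal there is known only to be below the threshold of its list. The background recovered from the deposited values was 8.49 reads in the si-CHAF1A list and 6.34 in the si-Ctrl list, a ratio of 1.34. At the si-Ctrl background, a site needed 20 reads at its summit, 3.15 times the background, to be listed. The 198 siRNA-only peaks with no raised local background had 51 to 149 reads, with a median of 58. The −log10 q of at least 20 itself requires such counts at this background, so they carry nothing beyond the selection, and the si-Ctrl reads and local background at these sites are not in the lists. Whether depth has a part in the absence was not tested.

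Local background was raised (more than 1.5 times the most frequent background of the list) at 281 of 479 siRNA-only peaks (58.7%; 54.1 to 63.1), close to the 58.2% of matched shared peaks. A background over 5 times the usual was more frequent in siRNA-only peaks, at 56 peaks (11.7%; 8.95 to 14.9), against 29 matched shared peaks (6.05%; 4.09 to 8.58). The extreme case was a peak in C11orf24 (chr11:68264424-68264601), with 4250 reads at the summit on a background of 349 times the usual. Its fold enrichment was 1.44, and its −log10 q of 106 rests on that depth.

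Few siRNA-only peaks lay at gene ends. A summit within 1 kb of either end of a protein-coding gene was found in 48 of the 486 (9.88%; 7.37 to 12.9), against 136 matched shared peaks (28.0%; 24.0 to 32.2). Matching the shared peaks on width as well as −log10 q left 105 at gene ends (21.6%; 18.0 to 25.5), still above the siRNA-only share and with intervals that do not overlap. Counting only 5′ ends, of all gene types, gave 8.53% of siRNA-only peaks and 25.2% of matched shared peaks. The same held for the strong si-Ctrl peaks absent from the si-CHAF1A list, of which 8.34% were at gene ends, against 29.2% of their matched shared peaks. A low share at gene ends was therefore found among the unshared strong peaks of either list.

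**Figure D3:**
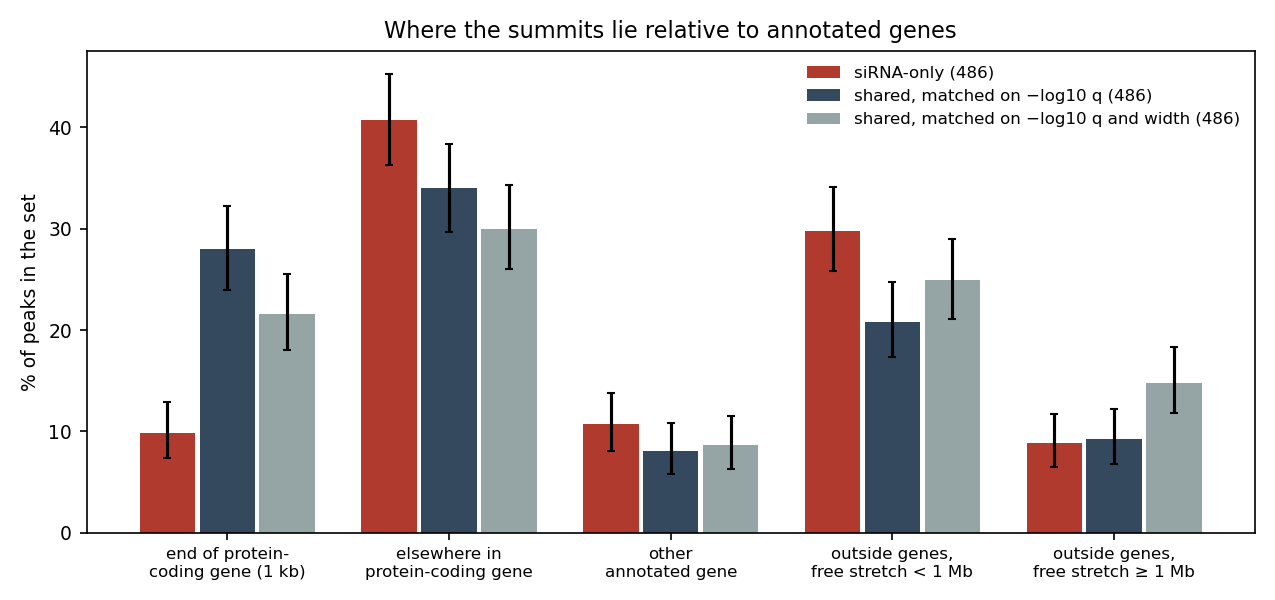
Percentage of peaks in 5 classes of location for siRNA-only peaks, shared peaks matched on −log10 q, and shared peaks matched on −log10 q and width, 486 each; error bars are 95% exact binomial intervals. The gap is widest at the ends of protein-coding genes, with 9.88%, 28.0% and 21.6%.

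Read the other way, 48 of 5979 strong si-CHAF1A peaks at gene ends were absent from the si-Ctrl list (0.803%; 0.593 to 1.06). Elsewhere in protein-coding genes it was 4.74%, in other annotated genes 4.18%, outside genes in shorter gene-free stretches 4.79%, and in gene-free stretches of 1 Mb or more 2.83%. Among narrow and weak peaks alone (under 250 bp and −log10 q under 30) the classes were closer. There 7 of 46 peaks at gene ends were absent (15.2%), against 27.6% elsewhere in protein-coding genes, 19.5% in other annotated genes, 20.4% in shorter gene-free stretches and 12.2% in gene-free stretches of 1 Mb or more. The interval at gene ends, 6.34 to 28.9, contains each of the other shares.

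The strongest siRNA-only peak at a gene end lay at TAF13, at chr1:109075962-109076285. It had 154 reads at the summit, a fold of 9.83 and a −log10 q of 95.1, and a weak si-Ctrl peak (−log10 q 5.88) began 225 bp away. A similar arrangement was found at MRPS17, which encodes a protein of the mitochondrial ribosome: the peak had a −log10 q of 37.0 and a si-Ctrl peak of 4.59 lay 153 bp away. At KIF11 (chr10:92592900-92593345) fold enrichment was 6.09 and −log10 q 46.7, with the nearest si-Ctrl peak 1057 bp away. At PPIF, the gene of the mitochondrial cyclophilin D, a peak of only 178 bp had a −log10 q of 37.2 and a si-Ctrl peak 479 bp away. In these 4 cases a si-Ctrl peak thus lay beside the gene end without touching the si-CHAF1A peak.

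Other gene ends had no si-Ctrl peak nearby. At CREBBP (chr16:3880767-3881196, fold 5.41, −log10 q 37.2) the nearest was 15765 bp away. The INTU peak (chr4:127632569-127633238) was 670 bp wide, with 57 reads and a fold of 6.11, and the nearest si-Ctrl peak was 148698 bp away. The same was seen at USP28, the gene of a deubiquitinase, with a fold of 6.22 and a gap of 99039 bp. The widest siRNA-only peak of all, at the SALL1 end (chr16:51151628-51153151), spanned 1524 bp with a −log10 q of 20.6 and a gap of 136478 bp. SALL1 encodes a zinc finger transcription factor of development. The next widest, 1388 bp, lay at RECK, which encodes an inhibitor of matrix metalloproteases. A 1248 bp peak lay at ATP6V0C, the gene of a proton channel subunit of the V-ATPase. Over all 48 gene-end peaks the gap had a median of 2786 bp and a range of 101 to 148698 bp, and the median width was 428 bp.

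Most siRNA-only peaks lay inside genes away from their outer ends or between genes. Elsewhere in protein-coding genes were 198 (40.7%), against 34.0% of matched shared peaks, and in other annotated genes 52 (10.7%), against 8.02%. Gene ends are the outer ends of the annotated gene, so the 198 include peaks at internal 5′ ends. Examples are HERC3, MCC and GTPBP2, with summits 117, 82 and 122 bp from a 5′ end. Outside genes, in gene-free stretches shorter than 1 Mb, were 145 (29.8%; 25.8 to 34.1), against 20.8% (17.3 to 24.7). Gene-free stretches of 1 Mb or more held 43 (8.85%), against 9.26%. Outside every gene lay 44.2% of siRNA-only peaks, against 42.6% of matched shared peaks and 50.8% of those matched on width too.

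The peaks in long gene-free stretches were the narrowest class, with a median of 245 bp, and the nearest to si-Ctrl peaks, with a median gap of 1414 bp. Their median −log10 q was 29.5. They fell on few chromosomes: 15 on chromosome 1 between 122714456 and 143256570, 9 on chromosome 11 between 51158699 and 53886464, and 9 on chromosome 13 between 16442849 and 17374462. No other chromosome had more than 2. These positions lie around centromeres, where satellite repeats make up much of the sequence. The repeats under the peaks were not analysed here.

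The 14 strongest siRNA-only peaks lay outside the ends of protein-coding genes, where 9.88% of all siRNA-only peaks lay. At that share few of 14 would lie there, so a count of 0 says little. Of the peaks with −log10 q of 100 or more, 0 of 14 lay at a protein-coding gene end, and their median width was 256 bp at a median fold of 13.3. The strongest (chr5:123761052-123761328) reached a fold of 53.7 and a −log10 q of 4180 over 277 bp, in no gene, and 60283 bp from the nearest si-Ctrl peak. Further peaks outside genes lay at chr17:488989-489205, with a fold of 40.6 and a −log10 q of 1373, and at chr7:45251971-45252161, with a fold of 24.4 and a −log10 q of 373. A 704 bp peak in TRB, the T cell receptor beta locus (chr7:142666121-142666824), had a fold of 36.8, a −log10 q of 1780 and a gap of 72664 bp. Width and fold varied among these 14 peaks, with C11orf24 at a fold of only 1.44 and TRB wider than most siRNA-only peaks.

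Inside genes, a pair of strong peaks lay in RAE1, which encodes an mRNA export factor. The first spanned chr20:57359118-57359819, with 259 reads, a fold of 12.4 and a −log10 q of 183. The second spanned chr20:57360302-57360619, with 232 reads, a fold of 11.2 and a −log10 q of 155. The nearest si-Ctrl peaks were 7596 and 8780 bp away.

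Nuclear copies of mitochondrial genes were among the strongest sites. Of the siRNA-only peaks, 8 overlapped a copy in the list of copies used here (1.65%; 0.713 to 3.22), against 1 of the matched shared peaks (0.206%; 0.00521 to 1.14). That list leaves out MTRNR2L3, MTRNR2L6, NMTRL-TAA5-1 and NMTRQ-TTG15-1, which are named for mitochondrial RNA genes. These pseudogenes also held a siRNA-only peak in the body or within 1 kb, so 8 does not cover every annotated copy. Which peaks they hold is not given here. Of all 27 strong si-CHAF1A peaks over copies in the list, these 8 were absent from the si-Ctrl list (29.6%; 13.8 to 50.2). Of 20 strong si-Ctrl peaks over these copies, 3 were absent from the si-CHAF1A list (15.0%; 3.21 to 37.9). The counts are small and these 2 intervals overlap. Over all strong peaks the shares were 3.05% in the si-CHAF1A list and 8.77% in the si-Ctrl list. Reads of mitochondrial DNA can align to such copies, and the share of mitochondrial reads was not analysed here.

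The copies named for complex I subunits included the strongest and the weakest of the 8. At MTND4P12, inside PCBD2 (chr5:134927038-134927389), the fold was 8.15 and the −log10 q 2194, with a si-Ctrl peak of −log10 q 1092 lying 1430 bp away. At MTND4P39, inside CPA6 on chromosome 8, the fold was 33.5 and the −log10 q 808. The weakest were at MTND5P12, with a fold of 2.53 and a −log10 q of 22.9, and at MTND2P33 and MTND1P22, which share 1 peak with a fold of 5.30 and a −log10 q of 22.8. At MTCO1P7, a copy of a cytochrome c oxidase gene, the peak was 742 bp wide, with a fold of 8.54 and a −log10 q of 45.8 on a background not raised. MTCYBP38, a copy of the cytochrome b gene on chromosome X, had a 721 bp peak with a fold of 7.80 and a −log10 q of 39.1. Widths over the 8 copies ran between 295 and 749 bp, with a median of 692 bp, against 344 bp over all siRNA-only peaks.

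Protein-coding genes with a siRNA-only peak were few and spread over many functions. Of 19974 protein-coding genes, 260 (1.30%) held one in the body or within 1 kb, and 9120 (45.7%) held any strong si-CHAF1A peak, so that 2.85% of genes with a strong peak had one that was siRNA-only. Genes with such a peak were long, with a median of 54938 bp, against 49630 bp for genes with a matched shared peak and 24170 bp for all protein-coding genes. No gene held 3, and 3 genes held 2: RAE1, PARP16, the gene of an ADP-ribosyltransferase of the endoplasmic reticulum, and CORO7-PAM16, a read-through gene. The siRNA-only peaks therefore did not pile up in single genes.

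Genes of CAF-1 and other histone chaperones had no siRNA-only peak (0 of 25 genes, 19 of them with a strong si-CHAF1A peak). The same was found for replication fork and origin genes (0 of 40, 31 with a strong peak), p53 targets (0 of 22, 19), interferon-stimulated genes (0 of 40, 14) and nucleic acid sensors (0 of 23, 11). Drivers of cholangiocarcinoma had 0 of 30 (17 with a strong peak), bile duct markers 0 of 28 (12), hepatocyte markers 0 of 28 (3), fibroblast markers 0 of 12 (3) and immune markers 0 of 14 (2). At 2.85% of genes with a strong peak, less than 1 gene would be reached in each of these lists, so a count of 0 says little about any of them.

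Some lists held a few siRNA-only peaks. Over all protein-coding genes, 2.85% of those with a strong peak had one, and counts this small were not tested against that share. Among genes that silence transposable elements, 2 of 34 had one (24 with a strong peak): ZCCHC3, a nucleic acid binding protein, with a −log10 q of 30.7, and TRIM33, a chromatin-binding ubiquitin ligase, with 20.3. Of 30 mitotic genes, 2 had one (22 with a strong peak): KIF11 and CDC20. CDC20, an activator of the anaphase-promoting complex, had a −log10 q of 21.6 on a background of 10.7 times the usual. Among integrin, collagen and laminin genes, 4 of 82 had one (42 with a strong peak): LAMA5 with a −log10 q of 29.0, COL23A1 with 25.9, COL4A2 with 25.6 and LAMA1 with 20.3. These genes encode chains of the extracellular matrix and basement membrane or, for COL23A1, a transmembrane collagen.

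Single genes with a siRNA-only peak were found in several other lists. A count of 1 in a list this short says little beside the 2.85% of all genes with a strong peak. CDH2, the gene of N-cadherin, was the 1 of 24 invasion and mesenchymal genes (12 with a strong peak). It had a −log10 q of 26.0 and a si-Ctrl peak 101 bp away. TEAD4, a transcription factor of the YAP pathway, was the 1 of 24 in its list (16 with a strong peak), with 28.1. EGR2 was the 1 of 23 immediate early genes (18 with a strong peak), with 38.4 and a si-Ctrl peak of 35.3 lying 982 bp away. FLT1, the gene of a VEGF receptor, was the 1 of 12 endothelial markers (3 with a strong peak), with 20.3. GRIN1, of an NMDA receptor subunit, was the 1 of 12 neuronal markers (5 with a strong peak), with 24.5.

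Counts in gene families were small and are read beside the 2.85% found over all protein-coding genes with a strong peak. Zinc finger genes had 4 of 509, namely ZNF875, ZNF362, ZNF629 and ZNF236. That is 1.29% of the 309 with a strong peak, and 10 had a matched shared peak. The ZNF875 peak (chr19:37334276-37335098) was 823 bp wide, with a fold of 5.73 and a summit 6 bp from a 5′ end. Cadherins and protocadherins had 2 of 93, CDH2 and CDH26, which is 4.17% of the 48 with a strong peak. A matched shared peak was held by 16. These are counts of genes, and 1 peak can be counted in more than 1 gene, so they are not numbers of peaks. Olfactory receptor genes had 0 of 392, of which 2 held a strong si-CHAF1A peak. Transfer RNA genes had 0 of 510, of which 96 held a strong si-CHAF1A peak. At 2.85%, few or no genes would be reached in these lists, so the counts of 0 say little. By gene type, 78 of 18177 lncRNA genes (0.429%) and 37 of 15212 pseudogenes (0.243%) held one. Of the genes with a strong peak, that was 2.64% of lncRNA genes and 9.89% of pseudogenes. Copies of mitochondrial genes in the list used here made up 19 of the 37 pseudogenes, although only 8 siRNA-only peaks overlapped one of these copies. The 37 are therefore not separate sites. MTRNR2L3, MTRNR2L6, NMTRL-TAA5-1 and NMTRQ-TTG15-1 are also among the 37 but are not in that list.

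Most siRNA-only peaks, 362 of 486 (74.5%), had a si-Ctrl peak within 10 kb, against 66.5% of matched shared peaks. The nearest si-Ctrl peak was 3686 bp away at the median (3088 to 4773), against 6316 bp (5647 to 7105) to the nearest non-overlapping si-Ctrl peak for matched shared peaks and 4848 bp (3951 to 5510) for those matched on width too. Within 1 kb were 109 siRNA-only peaks (22.4%; 18.8 to 26.4), against 74 matched shared peaks (15.2%; 12.1 to 18.7). Without peaks in raised local background, the siRNA-only share minus the matched share was −1.01 percentage points. Within 200 bp were 10 (2.06%), against 5 (1.03%). No si-Ctrl peak lay within 100 kb of 11 siRNA-only peaks (2.26%), against 13 matched shared peaks (2.67%). For a shared peak, the si-Ctrl peak that overlaps it is passed over, while siRNA-only peaks were chosen for having no such peak. The selection therefore bears on these distances, and the differences carry no test.

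**Figure D4:**
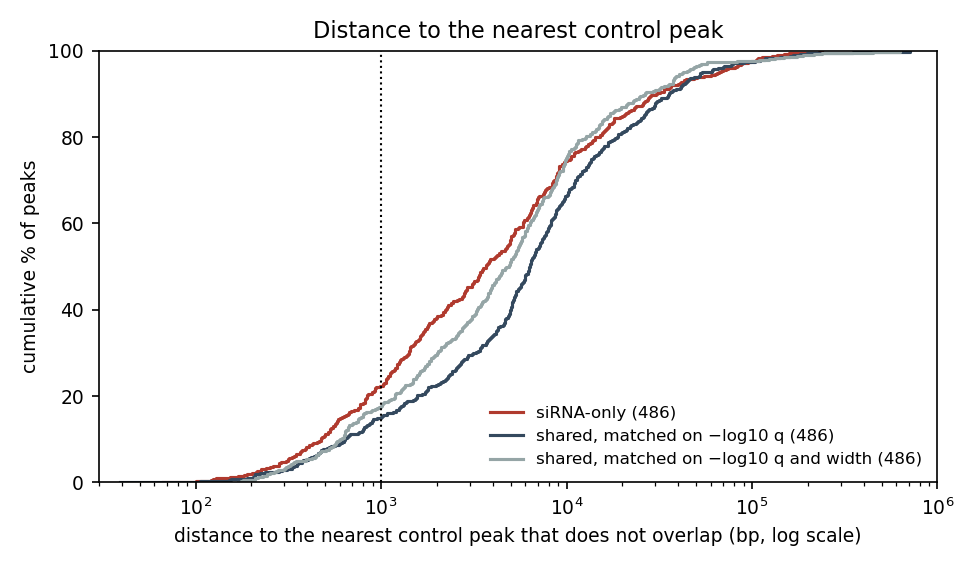
Cumulative percentage of peaks against the distance (bp, log scale) to the nearest si-Ctrl peak that does not overlap them, for siRNA-only peaks and the 2 sets of matched shared peaks, 486 each; the dotted line marks 1 kb. At 1 kb the curves stand at 22.4%, 15.2% and 17.5%, and the 3 curves meet by about 100 kb.

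The nearest si-Ctrl peak was usually itself shared. For 343 of 486 siRNA-only peaks (70.6%; 66.3 to 74.6) another si-CHAF1A peak overlapped that si-Ctrl peak. Among the 109 with a si-Ctrl peak within 1 kb it was 75 (68.8%; 59.2 to 77.3). The same share over all si-Ctrl peaks, or for matched shared peaks, is not given here. The 70.6% is therefore not read as particular to siRNA-only peaks. The neighbouring si-Ctrl peak had a median −log10 q of 12.3. The peaks farthest from any si-Ctrl peak were of ordinary strength for siRNA-only peaks. A peak in HMGCLL1 (chr6:55629792-55630368) had a gap of 238639 bp and a −log10 q of 24.2. The next, at chr2:139992673-139993231, had 229950 bp and 21.8. Those at chr16:34894414-34894648 and in ASCC3, the gene of a DNA and RNA helicase, had gaps of 168301 and 157682 bp.

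Along the chromosomes the siRNA-only peaks were scattered. Of the 486, 420 had no other within 100 kb, 44 formed 22 pairs, and 22 fell into 6 groups of 3 or more. Another siRNA-only peak within 100 kb was found for 66 (13.6%; 10.7 to 17.0), against 56 of an equal number of matched shared peaks (11.5%; 8.82 to 14.7). These intervals overlap, and the difference of 2.06 percentage points became −3.03 without chromosome 1 and −4.04 without peaks in raised background. Within 10 kb there were 14 (2.88%), against 2 (0.412%), and against 13 (2.67%) for shared peaks matched on width too.

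The 6 groups lay in regions dense with peaks of both lists. The largest held 5 siRNA-only peaks on chromosome 17 between 43238188 and 43364127, among 42 si-CHAF1A and 29 si-Ctrl peaks and 12 annotated genes with LOC symbols. Its local background was 7.94 to 26.6 times the usual and its folds were 1.76 to 2.45. On chromosome 21, between 8203961 and 8241357, 3 siRNA-only peaks lay among the ribosomal RNA genes RNA45SN2, RNA18SN2, RNA5-8SN2 and RNA28SN2, with a background of 15.0 to 44.9 times the usual and folds of 2.08 to 2.22. Groups of 4 (chr1:124460750-124651713), 4 (chr13:16816972-16943632) and 3 (chr1:122951910-123031895) held no gene and had backgrounds of 1.28 to 3.15 times the usual.

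The group on chromosome X, between 154344935 and 154387179, lay at FLNA and EMD, the genes of filamin A and emerin. Its outer peaks, chr X 154344935 to 154345893 and 154386221 to 154387179, were both 959 bp wide and flank the gene pair. Their folds were 2.12 and 1.93 on backgrounds of 16.6 and 17.6 times the usual. This gene pair is known to sit between inverted repeats of near-identical sequence, and the sources used here do not give how reads that match both copies were placed.

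By chromosome, the percentage of strong si-CHAF1A peaks that were siRNA-only ran between 2.21 on chromosome 18 (5 of 226) and 5.56 on chromosome X (24 of 432; 3.59 to 8.15). Chromosomes 22 (9 of 186, 4.84%) and 16 (26 of 618, 4.21%) came next, with intervals that contain the 3.05% of all strong peaks. Chromosome X is the only chromosome whose interval does not. It held 4.94% of siRNA-only peaks and 2.06% of matched shared peaks, 24 against 10 peaks, with intervals that overlap (3.19 to 7.26 and 0.991 to 3.75). Chromosome 10 held fewer siRNA-only than matched shared peaks, 22 against 44, and so did chromosome 1, 57 against 80. In the other direction chromosome X was low, with 21 of 432 strong si-Ctrl peaks absent from the si-CHAF1A list (4.86%; 3.03 to 7.33), under the 8.77% of all strong si-Ctrl peaks. With 23 chromosomes compared and 1 list per group, no test was made. Chromosome 1 had the most siRNA-only peaks, 57, at 3.13% of its strong peaks.

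**Figure D5:**
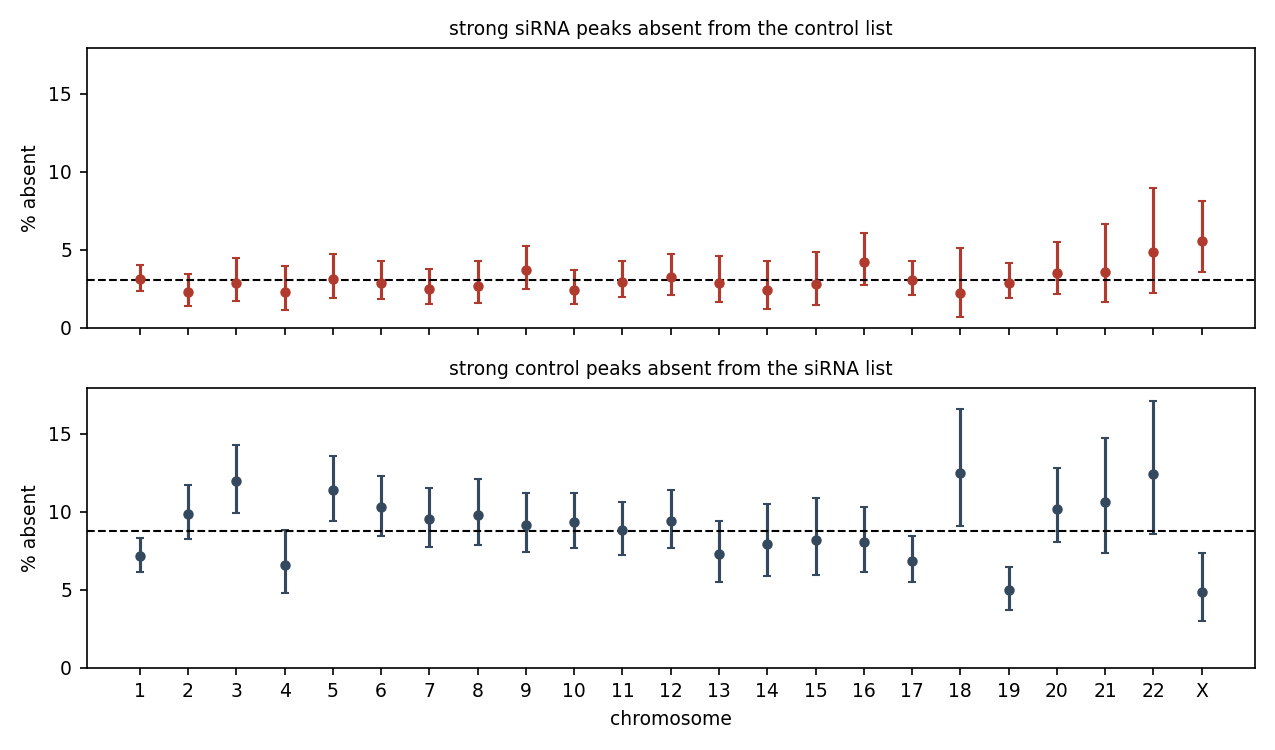
Percentage of strong si-CHAF1A peaks absent from the si-Ctrl list (top) and of strong si-Ctrl peaks absent from the si-CHAF1A list (bottom) on each chromosome, on the same axis; points are percentages, error bars 95% exact binomial intervals, and dashed lines the 3.05% and 8.77% of all strong peaks. Chromosome X is highest in the top panel, at 5.56%, and among the lowest in the bottom panel, at 4.86%.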

How the data were processed

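CHAF1A CUT&Tag in RBE cells was analysed from 2 deposited narrowPeak lists, which stand for 4 samples. The submitters' processing notes name MACS2 2.1.2 besides deepTools 3.4.3, Bowtie2 2.2.5 and fastp 0.20.1, and the build hg38. The aligner's settings, a control library and whether samples were pooled are not given in the sources used here. Fold enrichment is a ratio, deposited by the authors, of pileup to local background at the summit. The authors deposited the p-value and q-value of a peak as −log10 of each. The lowest −log10 p, 5.00 in either list, puts their threshold at 1e-05. Coordinates and the deposited summit offsets were converted to count from 1.

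Reads at the summit and local background were solved from fold and p, taken as (pileup + 1)/(background + 1) and a Poisson tail, where −log10 p was under 290. This gave a value for 99.1% of peaks in each list, and the solved pileups were whole within 0.02 reads. Depth in reads is unknown. The recovery and the overlaps were tested on simulated data.

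Gene positions, types and promoter windows came from RefSeq, GRCh38.p14. No promoter windows for chromosome 8 were used, and genome sequence was not used here. Shared peaks were matched 1 to 1 on −log10 q, without reuse. The rule for named peaks took the 10 highest by −log10 q, by fold and at gene ends, the 5 widest, narrowest and farthest from a si-Ctrl peak, groups of 3 or more within 100 kb, and up to 4 per gene list. USP28, ZNF875's coordinates, C11orf24, copies of mitochondrial genes, GTPBP2, PEPD and the FLNA pair were described after their values were seen. Some peaks that the rule takes are given only in counts. The peaks and 23 gene lists were chosen with earlier results of these data known. No test between conditions was possible with 1 list per group. Alternatives were other thresholds, overlaps, windows, matching, depth and chromosomes; 5′ ends were added later. Software was Python 3.11.15 with scipy 1.17.1, pandas 2.3.3, matplotlib 3.10.9 and numpy 2.4.6.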

Additional observations from a re-analysis of the deposited data

How the results depend on the processing

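Of 59 alternative values, 34 stayed near the reported one. For differences, near means within the spread of the reported difference. For the number or percentage of siRNA-only peaks, it means within a factor of 1.5. Of these 34, 13 had another sign, in small differences in fold, raised background, neighbours and peaks outside genes. A further 22 moved, 4 of them with another sign (neighbours and peaks outside genes), and 3 reversed. Differences below are siRNA-only minus matched shared peaks, in bp for width and percentage points for shares. With −log10 q of at least 10 there were 7972 siRNA-only peaks (20.6% of strong peaks), and the differences were −92.5 bp in width and −7.19 points at gene ends. With at least 30 there were 118 (1.18%), and the differences were −407 bp in width, −0.352 in fold, 10.8 points in raised background, −28.0 at gene ends, 15.3 in si-Ctrl peaks within 1 kb and 8.47 in neighbours within 100 kb. If sharing needed an overlap of 50% of both peaks, 2106 strong peaks (13.2%) were siRNA-only. Leaving out peaks with a si-Ctrl peak within 1 kb gave −17.0 points within 1 kb, by construction, and −3.71 in neighbours. Without raised local background the differences were −189 bp, −11.6 points at gene ends, −1.01 within 1 kb and −4.04 in neighbours. Matching on width too gave 1.5 bp, by construction, −11.7 points at gene ends and −6.58 outside genes. The difference within 200 bp of a si-Ctrl peak was 1.03 points, and that in neighbours without chromosome 1 was −3.03. Except where construction shows it, the cause was not tested. The lower share at gene ends kept its direction under every alternative run on it. Without chromosome 1 there were 429 siRNA-only peaks. Lists of equal length (486) and scaled depth (479, the peaks that could be solved) could not change a count of peaks chosen as strong, so they say nothing about its stability.

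No paired analysis was possible because each group has 1 list that does not keep its samples apart, and leaving out a replicate could not be run for the same reason. The depth of the lists limits how low the si-Ctrl signal at a siRNA-only peak can be shown to be.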

Other observations

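On sequences other than chromosomes 1 to 22 and X, 20 of 544 strong si-CHAF1A peaks had no overlapping si-Ctrl peak (3.68%), and 41 of 551 strong si-Ctrl peaks had no overlapping si-CHAF1A peak (7.44%). Both percentages lie near those of the chromosomes analysed. Over all si-CHAF1A peaks on chromosomes 1 to 22 and X, weak ones included, 51215 of 97492 (52.5%) had no overlapping si-Ctrl peak.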
